A study of Mus musculus with 9 samples.

Results

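Integrins and the other adhesion molecules of leukocytes were followed here as 35 genes of the 51912 in the count table, chosen by name for their known role and not by their values, and all 35 were found by symbol. They comprise the α and β subunits of integrins, the integrin ligands ICAM-1, ICAM-2 and VCAM-1, other receptors that cells use to hold on to vessels and matrix, and 3 cytoplasmic proteins that tie integrins to actin. The cells were pre-cDCs, the committed precursors that leave the BM and become conventional dendritic cells (cDCs) in tissues. Lethally irradiated CD45.1/2 mice of the BL/6 background had received BM in equal parts from WT donors of BL/6 CD45.1 and from CD45.2 donors with Clec9aCre/Cre, the DNGR-1 KO, so WT and DNGR-1 KO cells shared the same host and received no further treatment, and each sample pooled cells sorted from a pair of such mice. The series held 3 WT and 3 DNGR-1 KO samples of BM pre-cDCs, and 1 WT and 2 DNGR-1 KO samples of spleen pre-cDCs, profiled by bulk RNA-seq of total RNA after removal of ribosomal RNA.

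DNGR-1, encoded by Clec9a, is a receptor of dendritic cells for dead cells, and the Cre cassette in both Clec9a alleles removes it. The DNGR-1 KO therefore also carries Cre in place of Clec9a and, through CD45.2, a stretch of chromosome 1 that differs from the WT. None of the 35 genes lies in the chromosome 1 interval that the study names for this difference. WT cells are called CD45.1 in some fields of their labels and CD45.2 in others, and the methods give CD45.1, which was used. The labels give no age. The sort took live CD45+ cells negative for a set of lineage markers that included CD3, B220, NK1.1, Ly6G, Ter119 and Siglec-F, and the gates shown by the study for pre-cDCs used CD11c and CD11b, which are the products of Itgax and Itgam, so that the surface levels of these proteins were part of the choice of cells in every group.

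An integrin is a pair of an α and a β chain, and a chain that lacks its partner does not reach the surface. The leukocyte-specific β2 chain (Itgb2) pairs with αL (Itgal, LFA-1), αM (Itgam, CD11b), αX (Itgax, CD11c) or αD (Itgad), and these bind ICAMs, complement fragments and fibrin. The β7 chain (Itgb7) pairs with α4 (Itga4), which binds MAdCAM-1 and VCAM-1, or with αE (Itgae, CD103), which binds E-cadherin, whereas the β1 chain (Itgb1) pairs with many α chains for matrix and, with α4, for VCAM-1. Integrins rest in a bent, inactive form until talin (Tln1) and kindlin-3 (Fermt3) bind the tail of the β chain. In the BM, precursors are held by such contacts, and in blood they are slowed on vessel walls by selectins before integrins arrest them.

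The start regions of 4 members that differed between BM and spleen are shown first, since Icam1, Itga4 and Cd44 were higher and Itga2b lower in spleen. Each run is the 250 bases before the start site in the RefSeq annotation of GRCm38.p6, read 5′ to 3′ on the strand of the gene, with matches to 4 short motifs in capitals. Icam1 lies on the plus strand (chr9:21015690-21015939), Itga4 on the plus strand (chr2:79255176-79255425), Cd44 on the minus strand (chr2:102901666-102901915) and Itga2b on the minus strand (chr11:102469884-102470133).
Icam1: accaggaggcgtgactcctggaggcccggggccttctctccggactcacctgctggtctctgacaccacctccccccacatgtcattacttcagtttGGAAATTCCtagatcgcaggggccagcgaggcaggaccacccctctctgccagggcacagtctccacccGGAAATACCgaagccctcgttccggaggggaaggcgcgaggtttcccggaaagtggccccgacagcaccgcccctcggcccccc
Itga4: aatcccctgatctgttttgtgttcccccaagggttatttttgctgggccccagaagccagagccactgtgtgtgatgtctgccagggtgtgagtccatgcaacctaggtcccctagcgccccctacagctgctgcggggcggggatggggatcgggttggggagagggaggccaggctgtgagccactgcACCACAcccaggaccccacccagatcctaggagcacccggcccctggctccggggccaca
Cd44: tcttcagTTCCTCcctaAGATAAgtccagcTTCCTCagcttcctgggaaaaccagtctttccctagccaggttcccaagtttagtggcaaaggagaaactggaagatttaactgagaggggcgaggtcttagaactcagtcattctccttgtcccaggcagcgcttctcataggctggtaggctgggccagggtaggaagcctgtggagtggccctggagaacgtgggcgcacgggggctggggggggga
Itga2b: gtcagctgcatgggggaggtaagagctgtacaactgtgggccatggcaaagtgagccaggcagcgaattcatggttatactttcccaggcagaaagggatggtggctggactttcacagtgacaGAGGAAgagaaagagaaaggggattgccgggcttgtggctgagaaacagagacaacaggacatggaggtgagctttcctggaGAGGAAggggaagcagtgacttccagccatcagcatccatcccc

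The motifs were GGNNTTTCC, a short form of the NF-kB site, GAGGAA for PU.1, TGTGGT for RUNX and AGATAA for GATA factors, each searched on both strands in the 300 bases from 250 before to 50 after the start site. In Icam1 the capitals mark a pair of NF-kB matches on the minus strand at -153 and -84, counted in bases from the start site to the first base of the match. In Itga4 they mark a RUNX match at -60, in Cd44 PU.1 matches at -243 and -220 around a GATA match at -233, and in Itga2b PU.1 matches at -126 and -44. RefSeq windows were found for 23 of the 35 genes. The NF-kB letters were present in 2 of the 23 (8.70%), Icam1 and Itgb1, and in 5.82% of the 32851 windows of all genes. The PU.1 letters were present in 10 of the 23 (43.5%) against 28.3% of all windows, those of RUNX in 4 (17.4%) against 16.8%, and those of GATA in 2 (8.70%) against 11.2%. The matches are letters in a window and say nothing of binding.

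Total counts were 17103832 to 23722311 per sample. Clec9a checked the labels, with 905, 1574 and 1766 counts in the WT BM samples, 1 count in each DNGR-1 KO BM sample, 2459 in the WT spleen sample and 0 in both DNGR-1 KO spleen samples. Of 11 genes listed for pre-cDCs and DCs, 11 were above 3 counts in every BM sample and 10 in every spleen sample. The exception was Ly6d, with 0 counts in WT spleen and 35 and 1 in DNGR-1 KO spleen. Its product Ly6D was also among the lineage markers of the sort, so Ly6d is no check of the cells sorted. Spleen samples also held RNA of other cells: the summed level of 8 T cell genes was 994 to 3502 CPM (the usual library-scaled counts, here scaled by TMM) in spleen and 0.299 to 4.79 CPM in BM, with 7 of 8 above 3 counts in all spleen samples although the sort removed CD3+ cells, and that of 8 NK cell genes was 553 to 920 CPM against 49.0 to 131 CPM. Of these NK cell genes, 5 were above 3 counts in all spleen samples and 2 in all BM samples. Klrk1 alone had 513 CPM in WT spleen, 386 and 487 in DNGR-1 KO spleen, and 46.0 to 130 in BM. BM samples held the neutrophil list at 839 to 2628 CPM, mainly through Mpo, which progenitors also express, whereas spleen samples had at most 0.974 CPM of it. The erythroid list reached 5119 to 30810 CPM in spleen and 82.3 to 536 CPM in BM (the CPM of 5 genes summed), and the mast cell, megakaryocyte and endothelial lists were at 0 in spleen. In such bulk samples, fewer cells of a type and less RNA per cell cannot be told apart. The WT spleen sample had the most genes with no read, 2876 of the 13468 tested between tissues, against 1921 and 1881 in those of the DNGR-1 KO and 79 to 638 in BM.

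Pre-cDCs carried a small set of these genes at high level and many at the edge of detection. Per kilobase of exon, the scale on which genes were compared, PSGL-1 (Selplg), the ligand of selectins, ranked first in BM with 417 to 673 CPM per kilobase over the 6 samples. Itgb7 came next with 189 to 528, then Itgb2 with 78.8 to 217, the "do not eat me" receptor Cd47 with 80.6 to 99.0 and kindlin-3 (Fermt3) with 58.4 to 73.2. Although the ranges of neighbors overlapped, Selplg was above Itgb7 and Itgb7 above Itgb2 within each of the 6 BM samples. Itgb2 and Cd47 changed places, since WT BM sample 1 had 78.8 of Itgb2 and 99.0 of Cd47, and Fermt3 lay below Cd47 throughout. The place of Fermt3 holds for the mean only. In DNGR-1 KO BM sample 2, Jaml (80.4) and Itgax (70.2) lay above it (69.1). In DNGR-1 KO BM sample 3, Jaml (83.7) lay above both Fermt3 (58.4) and Cd47 (80.6). In spleen Itgb2 had the highest mean, with 589 in the WT and 347 and 323 in the DNGR-1 KO, ahead of Selplg (363, then 317 and 427) and Itgb7 (240.0, then 148 and 181). In DNGR-1 KO spleen sample 2, however, Selplg stood above Itgb2, so the first place of Itgb2 rests on the WT sample.

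At the other end, Itga7, an α chain for laminin, had no count in any sample. Itga2 and Itga9, α chains for collagen and for tenascin and VCAM-1, had at most 2 and 4 counts in BM samples. Itga3, Itga8, Itgb5 and the junctional adhesion molecule F11r stayed below 10 CPM in every sample.

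**Figure D1:**
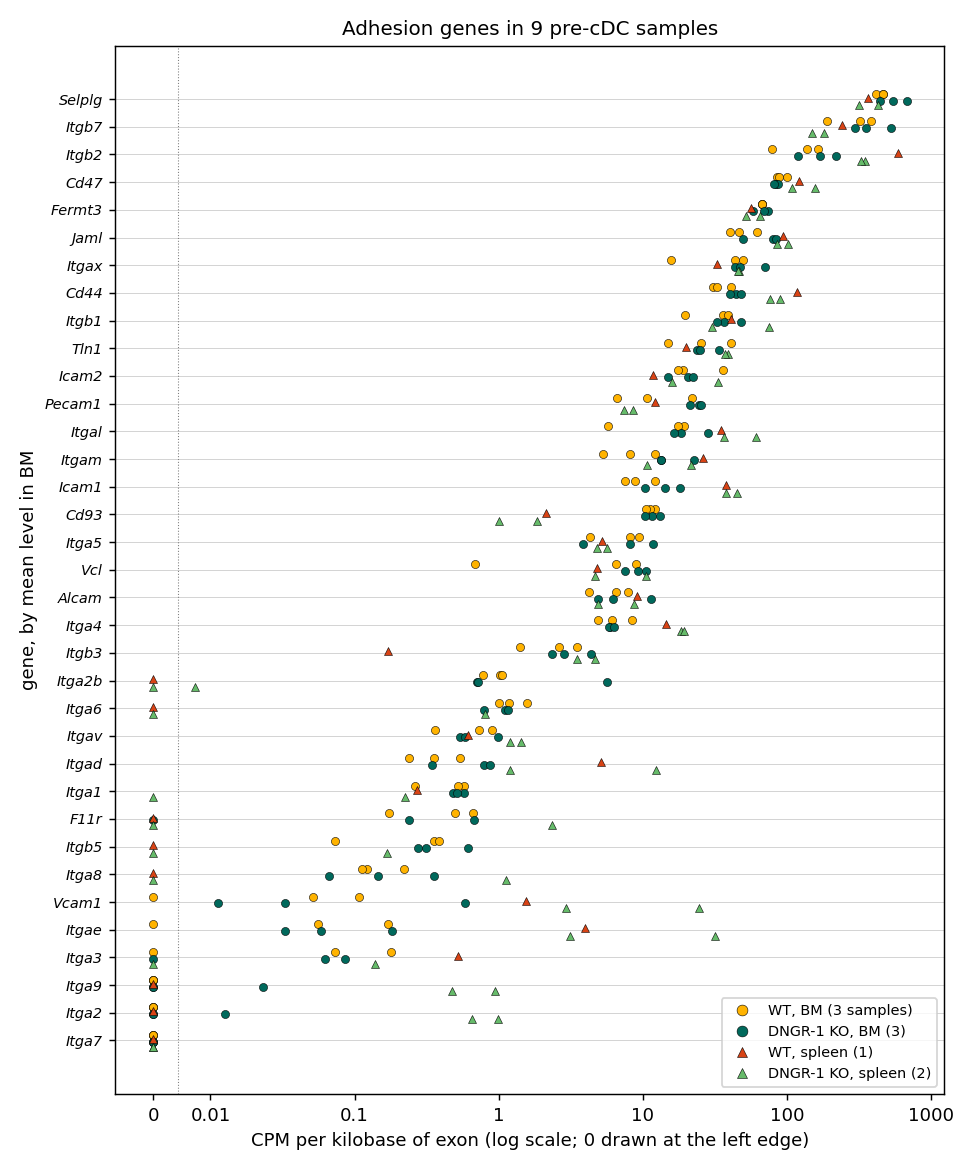
Level of each of the 35 adhesion genes in the 9 samples, in CPM per kilobase of exon on a log axis, with 0 drawn at the left edge and genes ordered by their mean in BM. Circles are BM samples and triangles spleen samples. Selplg, Itgb7, Itgb2 and Cd47 sit at the top, Itgae, Vcam1 and Itgad move right in spleen, and Itga2b and Cd93 move left.

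The first comparison asked how the adhesion genes of pre-cDCs differed between spleen and BM, with genotype as a covariate in a fit of 9 samples (edgeR's quasi-likelihood test, Benjamini-Hochberg adjusted over 13468 genes). Of 32 genes tested, 9 rose in spleen and 2 fell. Among all genes tested, 7.28% rose and 12.3% fell. With the replicate number as a block, 5 rose and 2 fell, and the sources used here do not say that a shared number marks a shared pool of mice. Those that rose were the integrin chains Itga4, Itgad, Itgae, Itgal and Itgb2, the ligands Icam1 and Vcam1, the hyaluronan receptor Cd44, and Cd47. Those that fell were Itga2b and Cd93. The median log2 fold change over the 32 genes was 0.28, also with Itga2b at its lower bound, and that over all genes was -0.18. Itgae and Vcam1 passed the filter on low counts only because they were high in spleen, and Itga2b only because it was high in BM. These genes had to differ, so their calls are a description. The counts describe the tested genes and not all 35.

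The ligands came first. Icam1, which arrests leukocytes through LFA-1 and Mac-1, had 32.8, 38.1 and 52.9 CPM in WT BM, 45.0, 78.3 and 61.8 in DNGR-1 KO BM, 164 in WT spleen and 165 and 195 in DNGR-1 KO spleen. Every spleen sample lay above every BM sample, with a log2 fold change of 1.72 (SE 0.23, edgeR adjusted p = 0.00144). Its window is the one shown above with the pair of NF-kB matches.

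Vcam1, the ligand of α4β1 and a gene of macrophages in the red pulp, had 0.957, 0 and 0.458 CPM in WT BM and 5.19, 0.293 and 0.1 in DNGR-1 KO BM, with 13.6 in WT spleen and 25.8 and 216 in DNGR-1 KO spleen. The spleen samples lay above all BM samples but spread widely among themselves (log2 fold change 5.63, SE 1.27, edgeR adjusted p = 0.0139). The log2 fold change was 4.35 without DNGR-1 KO spleen sample 2, and the call was lost in the DNGR-1 KO samples alone (5 samples, edgeR adjusted p = 0.0749) and with the replicate block (7.15, adjusted p = 0.0958). The summed level of 7 monocyte and macrophage genes was 1281 to 2095 CPM in BM, 1461 in WT spleen and 1199 and 2195 in DNGR-1 KO spleen, with 6 of the 7 above 3 counts in all samples of each tissue. Of these, C1qa, picked after its values were seen, ran in the same order as Vcam1 in spleen, with 4.41 CPM in the WT and 28.5 and 94.7 in the DNGR-1 KO, whereas Csf1r (679.8, then 237 and 319) and Adgre1 (124, then 67.2 and 69.5) were highest in the WT. The part of macrophage RNA in the Vcam1 values was not tested. Icam2, the constitutive ligand of LFA-1, had 28.3 to 68.8 CPM in BM and 22.5 to 63.1 in spleen, overlapping ranges (edgeR adjusted p = 0.898).

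Cd44, the receptor for hyaluronan, had 209, 219 and 276 CPM in WT BM, 299.6, 325 and 272 in DNGR-1 KO BM, 789.7 in WT spleen and 601 and 519 in DNGR-1 KO spleen. The spleen values did not overlap those of BM (log2 fold change 1.25, SE 0.20, edgeR adjusted p = 0.00299). Cd47, which binds SIRPα and thrombospondin and associates with integrins, moved less, with 621, 538 and 550.3 CPM in WT BM, 528, 542 and 506 in DNGR-1 KO BM, 754 in WT spleen and 678 and 972 in DNGR-1 KO spleen (log2 fold change 0.56, SE 0.17, edgeR adjusted p = 0.0426). That call was fragile: it was lost when any of 7 of the 9 samples was left out in turn (adjusted p up to 0.121), in the DNGR-1 KO samples alone (adjusted p = 0.130) and with the replicate block (log2 fold change 0.52, adjusted p = 0.179).

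Cd93, a C-type lectin-like receptor of early progenitors and endothelium that supports adhesion, was even over the BM samples, with 80.9, 74.5 and 69.8 CPM in WT and 77.5, 87.2 and 69.0 in DNGR-1 KO BM. It fell to 14.2 CPM in WT spleen and 12.3 and 6.73 in DNGR-1 KO spleen (log2 fold change -2.77, SE 0.30, edgeR adjusted p = 4.36e-04). No spleen sample came near the BM range. The list of endothelial and stromal genes was at 0.915 to 4.11 CPM in BM and 0 in spleen, the same direction as Cd93, and its part was not tested. Selplg had 1780 to 2876 CPM in BM and 1355 to 1825 in spleen, with a log2 fold change of -0.46 (SE 0.19) that did not pass (edgeR adjusted p = 0.130).

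Among the β2 integrins, the shared chain Itgb2 had 241, 422 and 497 CPM in WT BM, 361, 663 and 518 in DNGR-1 KO BM, 1799 in WT spleen and 1058 and 986 in DNGR-1 KO spleen. The ranges did not overlap, and the log2 fold change was 1.51 (SE 0.31, edgeR adjusted p = 0.00968). It rested on the WT spleen sample, without which it was 0.99 (adjusted p = 0.0875).

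Itgal, the α chain of LFA-1, had 37.5, 126 and 115 CPM in WT BM, 120.0, 186 and 108 in DNGR-1 KO BM, 227 in WT spleen and 239.7 and 400.3 in DNGR-1 KO spleen. All spleen samples lay above all BM samples (log2 fold change 1.25, SE 0.36, edgeR adjusted p = 0.0403), and the call was lost when any of 5 of the 9 samples was left out (adjusted p up to 0.131) and with the replicate block (log2 fold change 1.14, adjusted p = 0.0676). T cells also express Itgal, and the sum of the T cell list ran in the same order over the spleen samples, 994 CPM in the WT and 1303 and 3502 in the DNGR-1 KO. The part of T cell RNA in the Itgal values was not tested.

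Itgad, the αD chain of macrophages, had 1.08, 1.61 and 2.44 CPM in WT BM, 3.58, 3.90 and 1.55 in DNGR-1 KO BM, 23.1 in WT spleen and 5.39 and 55.4 in DNGR-1 KO spleen (log2 fold change 3.50, SE 0.69, edgeR adjusted p = 0.00767). The lowest spleen value stood close to the highest BM value, and the call was lost in the DNGR-1 KO samples alone (edgeR adjusted p = 0.0931) and with the replicate block (log2 fold change 2.87, adjusted p = 0.116). Among spleen samples the monocyte and macrophage sum was likewise lowest in DNGR-1 KO sample 1 and highest in sample 2. No gene of that list ran in this order by itself. The sum also overlapped between tissues, with 1281 to 2095 CPM in BM and 1199 to 2195 in spleen. Its part in the Itgad values was not tested. Itgam and Itgax, whose products were used in the gates, had 26.6 to 114 and 75.03 to 337 CPM in BM and 53.3 to 132 and 157 to 224 CPM in spleen, with overlapping ranges in each case (edgeR adjusted p = 0.306 and 0.762).

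Itgal, Itgam, Itgax and Itgad lie on chromosome 7 of GRCm38, the last 3 close together on the plus strand from 128062640 to 128223816 and Itgal at 127296260 to 127335138. Taken as shares of the CPM per kilobase of these 4 chains, Itgax held 57.2 to 62.2% in the 6 BM samples, while in spleen it held 33.2% in the WT and 44.1 and 35.3% in the DNGR-1 KO. Itgal held 21.2 to 27.0% in BM and 35.03, 34.5 and 47.1% in spleen. Neither share overlapped between tissues. That of Itgam did, with 11.4 to 19.7% in BM and 26.6, 20.3 and 8.19% in spleen, the DNGR-1 KO spleen sample 2 being the lowest of all 9. The T cell sum was 0.299 to 4.79 CPM in BM, 994 in WT spleen and 1303 and 3502 in DNGR-1 KO spleen. The part of T cell RNA in these shares was not tested.

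**Figure D2:**
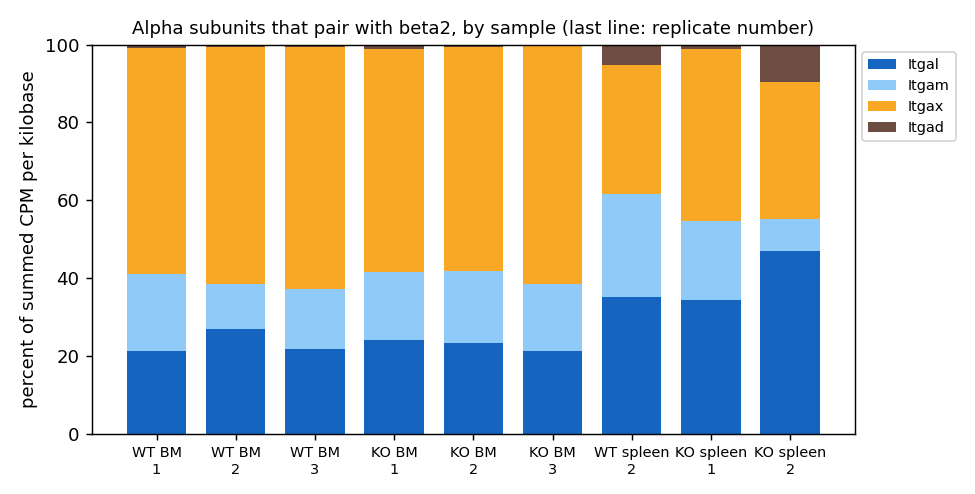
Share of each α chain that pairs with β2 in the summed CPM per kilobase of the 4, in percent, for each of the 9 samples. Itgax holds 57.2 to 62.2% in BM and 33.2 to 44.1% in spleen, where Itgal holds 34.5 to 47.1%.

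In the α4, αE and β7 group, Itga4 had 68.3, 117 and 85.9 CPM in WT BM, 83.2, 81.0 and 88.0 in DNGR-1 KO BM, 202 in WT spleen and 259 and 269 in DNGR-1 KO spleen. The ranges stood apart (log2 fold change 1.47, SE 0.20, edgeR adjusted p = 0.00156), and the call held under every alternative run. T cells also express Itga4, and its spleen values ran in the order of the T cell sum (994, 1303 and 3502 CPM), whose part was not tested. Neither of its β partners passed. Itgb7 had 523 to 1462 CPM in BM, 665 in WT spleen and 410.1 and 503 in DNGR-1 KO spleen, with a log2 fold change of -0.86 (SE 0.31, edgeR adjusted p = 0.0850), which passed only when WT BM sample 1 was left out (-0.99, adjusted p = 0.0313). Itgb1 had 79.3 to 196 CPM in BM and 124 to 307 in spleen, overlapping ranges (log2 fold change 0.42, SE 0.32, edgeR adjusted p = 0.418).

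Itgae, the CD103 chain of cDC1s and of T cells in epithelia, was at the edge of detection in BM, with 0, 15 and 5 counts in the WT and 6, 17 and 3 in the DNGR-1 KO samples. Spleen samples had 307 counts (18.3 CPM) in the WT and 2560 (144 CPM) and 339 (14.4 CPM) in the DNGR-1 KO (log2 fold change 6.93, SE 1.11, edgeR adjusted p = 0.00303). All spleen samples were far above BM, and DNGR-1 KO spleen sample 1 was far above the other two. Without it the log2 fold change was 5.41, and since Itgae entered the fit through its spleen values alone, its p is no support for a difference. That sample did not hold the highest T cell sum, but it did hold the highest counts of the cDC1 genes Xcr1 (3111, against 1767 in the WT and 905 in the other DNGR-1 KO spleen sample) and Batf3 (2057, against 407 and 339). The part of either cell type in the Itgae values was not tested.

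In the β3 group, Itga2b, the αIIb chain of platelets and of early progenitors, had 5.56, 5.71 and 4.22 CPM in WT BM and 30.8, 3.85 and 3.91 in DNGR-1 KO BM, and its counts in spleen were 0 in the WT and 0 and 1 in the DNGR-1 KO samples. Its mean in BM was at least 50.4-fold higher than the level of 3 counts in a spleen sample, and the lowest BM sample at least 21.6-fold (edgeR adjusted p = 0.00295). Itga2b entered the fit through its BM values alone, so its p is no support for a difference. The megakaryocyte list, Itga2b left out, had 3.32 to 44.3 CPM in BM and 0 in spleen. Itgb3, the partner of Itga2b and of αV, had 8.26 to 25.6 CPM in BM, 1.012 in WT spleen and 20.6 and 27.6 in DNGR-1 KO spleen, and did not pass between tissues (edgeR adjusted p = 0.676). Itgav itself had 3.89 to 10.6 CPM in BM and 6.61 to 15.4 in spleen (adjusted p = 0.532).

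Of the matrix receptors, the collagen chain Itga1 (4.85 to 10.7 CPM in BM, 0 to 5.06 in spleen), the laminin chain Itga6 (7.07 to 14.2 and 0 to 7.28) and the fibronectin chain Itga5 (19.1 to 58.0 and 23.6 to 27.6) did not pass (edgeR adjusted p = 0.407, 0.396 and 0.387). Itga6 had no count in the WT and in a single DNGR-1 KO spleen sample. Pecam1, which guides passage between endothelial cells, had 41.5 to 157 CPM in BM and 45.8 to 75.6 in spleen (log2 fold change -0.94, SE 0.42, edgeR adjusted p = 0.149). Pecam1 passed with a log2 fold change of -1.57 (edgeR adjusted p = 0.0175) in the DNGR-1 KO samples alone. Its fold change was -1.57 (adjusted p = 0.0490) without the WT spleen sample and -1.13 (adjusted p = 0.0472) without WT BM sample 1. Jaml, a junctional molecule of myeloid cells, had 126 to 260.2 CPM in BM and 266 to 315 in spleen (log2 fold change 0.60, SE 0.23, edgeR adjusted p = 0.0963). It passed with DESeq2 (log2 fold change 0.67, DESeq2 adjusted p = 0.0427).

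No difference of the cytoplasmic links was called between tissues. Fermt3 had 338 to 423 CPM in BM and 299 to 374 in spleen, Tln1 146 to 401 and 194 to 380.4, and the talin partner vinculin (Vcl) 5.62 to 85.9 and 37.9 to 86.4. All 3 ranges overlapped, with log2 fold changes of -0.22 (SE 0.15), 0.14 (SE 0.33) and -0.22 (SE 0.62) that did not pass (edgeR adjusted p = 0.370, 0.825 and 0.853). Vcl was lowest by far in WT BM sample 1, at 5.62 CPM against 53.4 to 85.9 in the other BM samples. Alcam, a ligand of CD6, also overlapped (29.9 to 81.1 CPM in BM, 34.98 to 64.7 in spleen, adjusted p = 0.833).

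Ratios within a sample do not depend on its scaling, and 3 of them were taken after the values had been seen. The log2 ratio of Itgb7 to Itgb2 in CPM was 1.12, 1.08 and 1.09 in WT BM, 1.178, 1.14 and 0.90 in DNGR-1 KO BM, -1.44 in WT spleen and -1.37 and -0.97 in DNGR-1 KO spleen. Every BM sample had more CPM of Itgb7 and every spleen sample more of Itgb2, and spleen was lower by 2.39 within genotype, as a description with no test, since the pairs were picked for their values. The log2 ratio of Itgal to Itgax was -1.07 to -0.72 in BM and 0.10 to 0.87 in spleen (difference 1.42), and that of Itgb1 to Itgb7 was -2.90 to -2.45 and -1.99 to -0.71 (difference 1.11). Leaving out each sample in turn gave differences of -2.49 to -2.24, 1.23 to 1.62 and 0.85 to 1.52. Within BM, DNGR-1 KO and WT differed by -0.02, 0.02 and -0.05 in the mean of these ratios. Among spleen samples, DNGR-1 KO sample 2 held the highest T cell sum (3502 CPM) and the highest value of each ratio. For Itgb7 to Itgb2 that was the value nearest BM. The part of T cell RNA in these ratios was not tested.

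**Figure D3:**
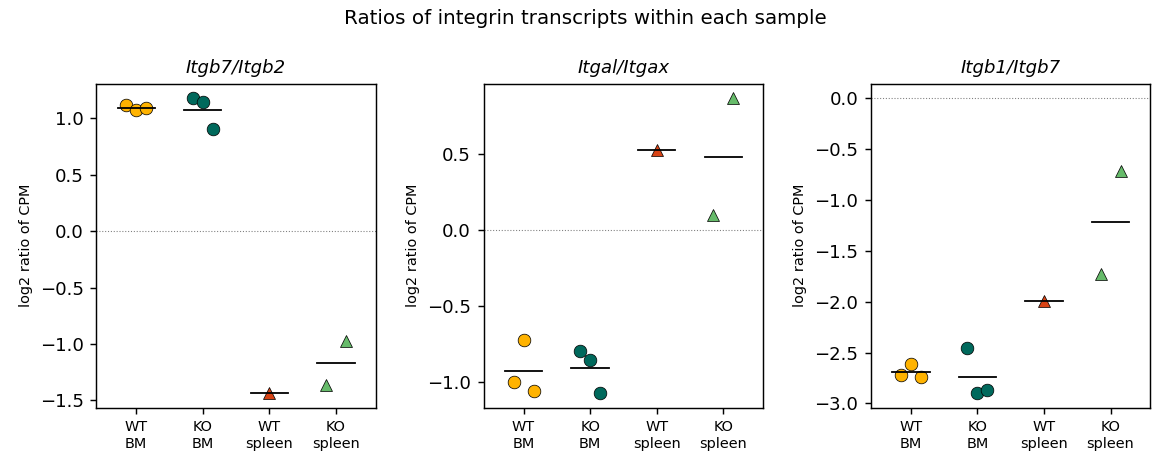
Log2 ratio of the CPM of 2 integrin genes within each sample, for Itgb7 to Itgb2, Itgal to Itgax and Itgb1 to Itgb7. Points are samples and bars the mean of each group, and the dotted line marks equal CPM. The BM samples of both genotypes lie together, and all 3 spleen samples lie apart from them.

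The second comparison asked whether DNGR-1 KO pre-cDCs of BM differed from WT pre-cDCs in these genes, over the 6 BM samples. No adhesion gene passed among 29 tested (edgeR's quasi-likelihood test), as against 4 of 13016 genes, or 0.0307%. DESeq2 and limma-voom also called 0 of them. At an unadjusted p under 0.05 there were 2 genes, Itgam and Pecam1, where 3.83% of all genes were under it. The log2 fold changes of 23 of the 29 were positive and 6 negative, with a median of 0.31 against -0.0045 over all genes.

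The median was 0.13 without WT BM sample 1, 0.15 without DNGR-1 KO BM sample 2, and 0.40 to 0.49 with any other BM sample left out. WT BM sample 1 held the lowest level of the 6 in 17 of the 29 genes (58.6%), which was so in 28.1% of all genes tested. Between the samples numbered 1, DNGR-1 KO was above WT in 24 of 29 genes (median log2 difference 0.56), between those numbered 2 in 22 (0.30) and between those numbered 3 in 11 (-0.04). The 6 genes that were higher in all 3 of these pairs included Itgam, Icam1, Pecam1 and Jaml. These counts by number were not taken over all genes, and a shared number is not known to mark shared mice. They are a description and no trait of the members.

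Itgam, the CD11b chain, had 26.6, 40.6 and 61.3 CPM in WT and 67.1, 114 and 67.4 in DNGR-1 KO BM. It was the only adhesion gene with every DNGR-1 KO sample above every WT sample, and none was below in that way, where 4.79% and 4.76% of all genes were. Its log2 fold change was 0.95 (SE 0.35, unadjusted p = 0.0215, edgeR adjusted p = 0.861), and 0.66 to 1.3 when each sample was left out. CD11b was among the stains of the gate.

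Pecam1 had 41.5, 66.6 and 135 CPM in WT and 131, 152 and 157 in DNGR-1 KO BM, so that the groups overlapped through WT BM sample 3 (log2 fold change 0.85, SE 0.38, unadjusted p = 0.0488, edgeR adjusted p = 0.861). Icam1 (values above) and Jaml, with 145, 126 and 193 CPM in WT and 153, 249.9 and 260.2 in DNGR-1 KO, also overlapped between genotypes. Their log2 fold changes were 0.58 (SE 0.29) and 0.52 (SE 0.27), with an edgeR adjusted p of 0.861 for each.

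Itga2b had the largest log2 fold change in size among the 29, 1.31 (SE 0.74, edgeR adjusted p = 0.861), and it came from DNGR-1 KO BM sample 1, with 688 counts against 78 to 110 in the other BM samples. Without that sample the value was -0.41. The same sample held the highest sum of the megakaryocyte list, 44.3 CPM against 3.32 to 21.5 in the others. The most even members between genotypes included Fermt3 (log2 fold change -0.01, SE 0.20), Tln1 (0.02, SE 0.34) and Cd93 (0.05, SE 0.22), and Itgb2 and Itgb7 stood at 0.41 (SE 0.32) and 0.39 (SE 0.31).

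**Figure D4:**
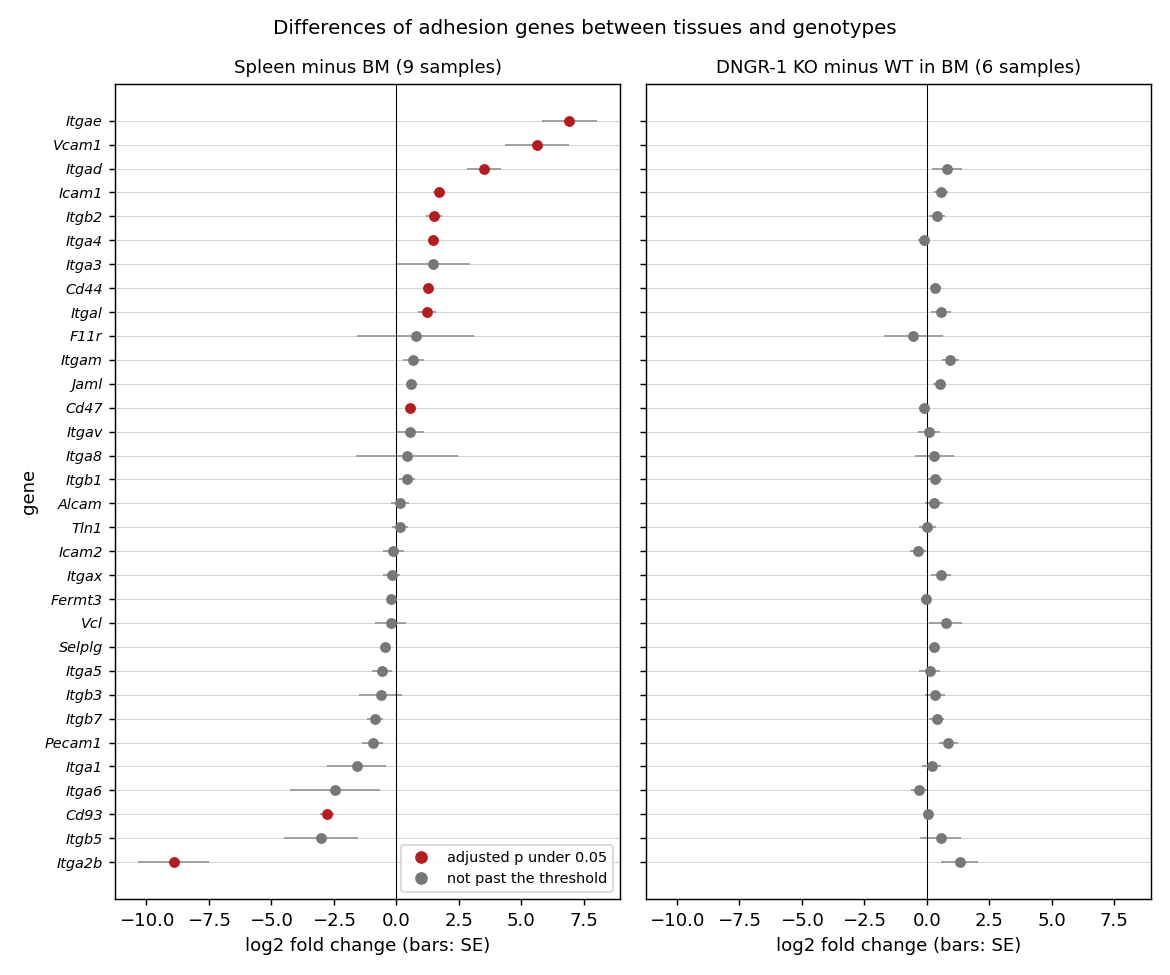
Log2 fold change of each tested adhesion gene between spleen and BM (left) and between DNGR-1 KO and WT in BM (right), with the SE as bars, on a shared scale. Red points passed at an adjusted p under 0.05. The 11 red points are all between tissues, and the genotype differences lie between -0.54 and 1.31.

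The third comparison set the spleen samples of DNGR-1 KO against the WT. With 1 WT sample it has no replicate check and no test. Of 29 adhesion genes that averaged 50 counts or more, 3 were higher by a log2 difference of at least 1 in both DNGR-1 KO samples and 0 were lower, where 17.0% and 7.48% of the 10772 genes of that level were. Of the 29, 11 were higher and 8 lower in both DNGR-1 KO samples, and 9 had opposite signs. The shares of all genes with such signs were not taken, so these counts are a description and no trait of the members.

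The 3 were Itga2, Itga9 and Itgb3. Itga2, the α chain of the collagen receptor VLA-2 and a marker of NK cells, had 0 counts in the WT and 126 and 109 in the DNGR-1 KO, at least 39.6- and 25.8-fold higher than the level of 3 counts. Itga9 had 0 against 128 and 86 counts, at least 40.2- and 20.4-fold higher. Among the 29 genes, 3 had no count in the WT spleen sample, Itga2, Itga6 and Itga9, and 10.4% of all genes of that level did. The NK cell gene Ncr1 was likewise at 0 counts in the WT and at 281 and 253 in those of the DNGR-1 KO, although Klrk1 and Eomes were counted in all 3. The part of NK cell RNA in the Itga2 values was not tested.

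Itgb3, the β chain of the vitronectin receptor, had 17 counts in the WT and 367 and 651 in the DNGR-1 KO samples of spleen, which is 20.3- and 27.2-fold in CPM (log2 differences of 4.22 and 4.63). In BM it had 138, 399 and 305 counts in the WT and 376, 525 and 274 in the DNGR-1 KO samples. The WT spleen sample stood alone below all other 8. The test of the difference between the genotype effects in spleen and in BM, which takes the lone WT spleen sample to vary like the other groups, gave a log2 value of 4.23 (SE 0.94, edgeR adjusted p = 0.0253). The spread of the WT spleen group could not be measured, so this value does not establish a difference between the tissues. Itgb3 was the only one of 32 adhesion genes to pass, where 8.85% of all genes did. The call was lost when any of 4 of the BM samples was left out (adjusted p up to 0.0639).

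Other members differed between the DNGR-1 KO spleen samples themselves. Itgad was at a log2 difference of -2.08 from the WT in sample 1 and 1.26 in sample 2, Itgae at 2.97 and -0.35, Vcam1 at 0.92 and 3.98 and Itga1 at -0.28 and -5.66. The α4 chain Itga4 (0.36 and 0.41), Itgax (0.51 and 0.48), Tln1 (0.97 and 0.90), Cd44 (-0.39 and -0.60) and Itgb2 (-0.77 and -0.87) were close between the samples.

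**Figure D5:**
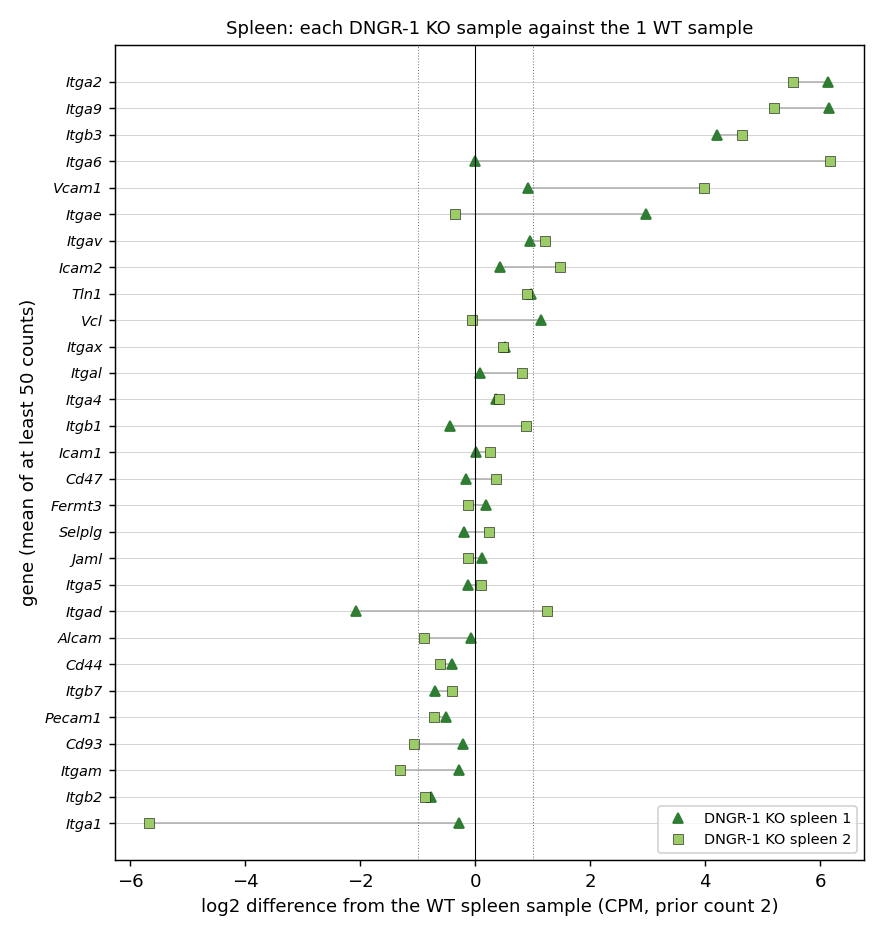
Log2 difference of each DNGR-1 KO spleen sample from the single WT spleen sample, for the 29 adhesion genes that averaged 50 counts or more, in TMM-scaled CPM with a prior count of 2. Triangles are sample 1 and squares sample 2, and dotted lines mark a difference of 1 either way. Itga2, Itga9 and Itgb3, which averaged 50 counts only through the DNGR-1 KO samples, lie past the line in both samples. Itgad and Itgae lie on opposite sides of 0. Differences of genes with no count in the WT sample depend on the prior count.

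Beyond the 35 genes, a list of 69 genes of the same machinery was read from the same fits: other integrin chains, selectins, further receptors, regulators of Rap1 and their effectors, inhibitors of integrins, kinases and adaptors of adhesion sites, and matrix ligands. Between tissues 52 were tested, of which 11 rose and 6 fell in spleen (7 and 5 with the replicate block), against 7.28% and 12.3% of all genes. Skap1 and Cd2 passed the filter on low counts only because they were high in spleen. Selp, Lamb2 and Icam4 passed it only because they were high in BM. The calls of these genes are a description. The group of Rap1 regulators and effectors, which also holds the Rap1 inactivators Sipa1 and Rap1gap, neither of them called, had 5 of 12 higher and 0 lower, namely Skap1, Fyb, Rap1b, Rassf5 and Rap1a. The kinases and adaptors had 4 of 19 higher and 2 lower. Nothing particular to these groups was tested.

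Fyb (ADAP), an adaptor that brings Rap1 signaling to integrins, had 29.0 to 35.7 CPM in BM, 212 in WT spleen and 197 and 244 in DNGR-1 KO spleen (log2 fold change 2.75, SE 0.16, edgeR adjusted p = 2.48e-05). The actin regulator Vasp had 34.2 to 76.6 CPM in BM and 129 to 169.8 in spleen (1.46, SE 0.23, edgeR adjusted p = 0.00292). Neither overlapped between tissues. The T cell sum was 0.299 to 4.79 CPM in BM, 994 in WT spleen and 1303 and 3502 in DNGR-1 KO spleen. The part of T cell RNA in the Fyb values was not tested. Skap1, the partner of ADAP in T cells, had 0 to 5 counts in BM samples and 1549, 2578 and 10902 in spleen samples, and the T cell adhesion receptor Cd2 0 to 18 counts in BM and 1320, 2852 and 10251 in spleen (edgeR adjusted p = 2.19e-05 and 6.41e-04). Skap1 and Cd2 entered the fit through their spleen values alone, so their p is no support for a difference. Both ran in the order of the T cell list, whose part was not tested.

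Of those that fell, Cd34, a sialomucin of progenitors, had 116 to 254 CPM in BM, 31.9 in WT spleen and 19.2 and 12.6 in DNGR-1 KO spleen (log2 fold change -2.99, SE 0.40, edgeR adjusted p = 0.00142). Selp (P-selectin), Lamb2 (a laminin chain) and Icam4 (a ligand on red cell precursors) had no count in spleen, and their BM means were at least 39.1-, 12.2- and 65.9-fold higher than the level of 3 counts, and their lowest BM samples at least 17.7-, 6.03- and 7.64-fold (edgeR adjusted p = 0.00331, 0.00367 and 0.00391). Selp, Lamb2 and Icam4 entered the fit through their BM values alone, so their p is no support for a difference. Selp was highest, at 432 counts against 63 to 107 in the other BM samples, in the same DNGR-1 KO BM sample 1 as Itga2b.

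Between BM genotypes 49 genes of the list were tested and 0 passed. The adaptor Apbb1ip (RIAM), which links Rap1 to talin, was the only one at an unadjusted p under 0.05, with 62.4, 56.2 and 39.1 CPM in WT and 35.3, 40.8 and 25.9 in DNGR-1 KO BM (log2 fold change -0.63, SE 0.28, unadjusted p = 0.0476, edgeR adjusted p = 0.861). The groups overlapped. The adaptor Skap2 had a log2 fold change of 0.51 (SE 0.26, edgeR adjusted p = 0.861).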

How the data were processed

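Bulk RNA-seq of 9 pre-cDC samples was analyzed. The submitters' processing notes name Trimmomatic 0.36, STAR 2.5.2, RSEM 1.3.0, DESeq2 1.18.1, R 3.4.3 and GRCm38. The authors deposited expected counts per gene, not normalized, of which 25.6% of nonzero values are not whole, and log2-scale values after a variance stabilizing transformation (VST), used here only as an alternative. All columns belonged to the samples. Groups follow the labels, and the digit of each title is the replicate number. The design was written for counts, so these expected counts were rounded first.

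Symbols came from GENCODE M21 (51719 of 51912 identifiers). The tests ran in edgeR 4.0.16 under R 4.3.3, with TMM scaling, the filterByExpr filter and the quasi-likelihood F test at a Benjamini-Hochberg adjusted p of 0.05, and DESeq2 1.42.0 and limma 3.58.1 were alternatives. BM genotypes were fitted over 6 samples and tissues over 9 with genotype as covariate. P-values measure the spread between pooled samples. CPM are TMM-scaled, and log2 CPM use a prior count of 2. Folds against samples at 3 counts or fewer are bounds against 3 counts per sample, which is 0.127 to 0.175 CPM before scaling, and depth limits cover counting error only. Reads of paralogs or overlapping genes may be divided between them by the counting. The scripts were tested on simulated data. Replicates of a group differed by far more than sampling noise (chi-square per gene 28.9 to 257).

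All 35 genes are accounted for. Values by sample are given for genes past the threshold, the 5 of lowest p between BM genotypes, and in spleen those of at least 50 mean counts that differ by a log2 value of at least 1 in both DNGR-1 KO samples. Genes of the list of 69 are the 4 of lowest adjusted p in each direction between tissues and the 3 of lowest p between BM genotypes, of which 1 gene is not reported here. The marker genes Xcr1, Batf3, C1qa, Ncr1, Klrk1 and Eomes were chosen after their values were seen. The 35 genes and the lists were chosen with earlier results of these data known. Alternatives were other tests, size factors and filters, the replicate number as a block, sample subsets, the CD45 interval left out or as a covariate, another prior count, VST values, and each sample left out.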

Additional observations from a re-analysis of the deposited data

Results flagged for a closer look

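Itgb3 passed the test of a difference in genotype effect between the tissues, which rests on an arm of 1 WT spleen sample with no spread of its own and so does not establish such a difference. The DNGR-1 KO minus WT difference in spleen, less that in BM, was 4.23 on the log2 scale, in edgeR's test of the difference itself (SE 0.94, adjusted p = 0.0253), where 8.85% of all genes tested passed and the median of this quantity over all genes was 0.293. The WT spleen sample held 17 counts of Itgb3 and had no count for 2876 of the genes tested. Leaving out WT BM sample 2 or 3 or DNGR-1 KO BM sample 1 or 3 ended the call. The part of that spleen sample's low gene detection was not tested.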

How the results depend on the processing

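No alternative called an adhesion gene, or a gene of the list of 69, between BM genotypes. The call of Itga4, Icam1, Cd44 and Cd93 between tissues held under every alternative run. Itgae and Itga2b were fixed by the filter and are not counted among these. Genes higher in spleen (9 before) numbered 10 with DESeq2, where Jaml joined. They numbered 5 with the replicate block, Itgad, Itgal, Vcam1 and Cd47 being lost. In the DNGR-1 KO samples alone they numbered 5, Itga2 being gained and Itgb2 also lost. Itga2 entered that fit through its spleen values alone, so its call is a description. Without the WT spleen sample they numbered 8, with Itga2 and Itga9 gained in the same way and Itgal, Itgb2 and Cd47 lost. The list of 69 gave 7 with the block and 6 in the DNGR-1 KO samples (11 before). Genes lower in spleen numbered 1 with DESeq2, 4 with limma-voom, where Itga6 and Itgb5 joined, and 1 with at least 10 counts in every sample (2 before), which left 3 of the list (6 before). Leaving out each sample gave 7 to 9 higher, 2 to 4 lower, 0 to 3 for the difference between genotype effects, and 8 to 12 and 5 to 6 in the list. DESeq2 gave 2 for that difference, with Itga6. In spleen the count of genes higher in both DNGR-1 KO samples was 1 with VST values, and 5 to 8 higher and 1 to 3 lower with a single DNGR-1 KO sample. Itga2b in BM ranged from -0.413 without DNGR-1 KO BM sample 1, where its sign turned, to 1.748 (1.31 before). Over all genes, calls between BM genotypes were 4, 11 with DESeq2, 10 without a filter, 1 without the CD45 interval and 2 to 15 with a sample left out; between tissues 2631, 1246 with the block, 1336 in the DNGR-1 KO samples and 1762 with at least 10 counts; and for the difference of effects 1192 and 2170 with DESeq2. Same-numbered BM samples deviated together by r = 0.103, 0.099 and -0.0815, and 2 of 6 correlated best with their own number, and it is not stated that a number marks a shared pool of mice, so the fit without the block was kept. The causes were not tested.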
